A study of Homo sapiens with 17 samples.

Results

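Wild-type DGCR8 was returned to cells that carry a deleted form of it, and the microRNA hairpins of these cells were compared with those of mock-rescued cells. All 6 libraries came from HCT116, an established human colon carcinoma line, in which the CTT domain of DGCR8 had been deleted with CRISPR-Cas9 (dCTT). The labels call this deletion a functional knockout. In 3 libraries the dCTT cells were given WT DGCR8 as a rescue (WT replicates 1 to 3), and in 3 they had a mock rescue. The labels do not say how the rescue was delivered, how long it lasted or whether the edited line is 1 clone, so the groups are known only by these genotypes. The mock columns carry the numbers 1 to 3 but not the names of the mock samples, so they are tied to the group only and are called mock libraries a, b and c, in the order of those numbers. These are 6 of the 17 small RNA libraries of the series. Further libraries came from dCTT cells rescued with mutant forms of DGCR8, some of them with ALA. These mutant libraries count among the 15 rescue libraries used below. The compared hairpins are the 336 of 1282 listed hairpins with a mean of 10 or more over the 15 rescue libraries, and the 336 carry 277 microRNA names. The mean was 10.1 for mir-4742, just inside this limit, and 9.91 for mir-642a, just outside it.

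In the nucleus, DGCR8 binds RNA and the nuclease DROSHA cuts it, and together they form Microprocessor. Microprocessor grips the stem and apical loop of a primary microRNA transcript and cuts out a hairpin, which DICER then trims to the mature microRNA. A few hairpins enter this path without Microprocessor, such as mirtrons, which are released by splicing, and capped hairpins made directly at a transcription start.

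Read counts summed over hairpins ran from 146023 to 587214 in mock and from 660126 to 1470755 in WT. Values are given as scaled reads, which are read counts multiplied by a factor per library that the authors chose. The scaled totals were 587214, 470110 and 476399 in mock a, b and c, and 1962191, 1137363 and 1193937 in WT 1, 2 and 3 (exact permutation test over 3 against 3 libraries, 2-sided, p = 0.1, the smallest possible). The WT mean was 2.80 times the mock mean. On this scale the sum of the 8 miR-320 hairpins was 178665 to 192392 in mock and 195151 to 208002 in WT, and every change below is relative to that. WT replicate 1 and mock library a were the highest libraries of their groups for 178 and 159 of the 187 hairpins that rose. Over all 336 tested hairpins they were the highest for 272 and 209. Whether replicates are separate cultures is not stated in the labels. The p-values below therefore reflect only library-to-library spread, and that spread may be technical. In the main limma fit it was taken over all 15 rescue libraries, those with mutant DGCR8 included. In such bulk RNA, fewer cells and less RNA per cell cannot be told apart.

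The microRNAs shown here are those whose close relatives moved by different amounts when WT DGCR8 was returned. A mature microRNA recognises its targets mainly through its seed (bases 2 to 8 from the 5′ end, in capitals, RefSeq, GRCh38.p14), so relatives with 1 seed share most targets. The let-7 members share their seed throughout:
let-7i-5p: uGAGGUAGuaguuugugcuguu
let-7a-5p: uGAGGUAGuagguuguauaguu
let-7f-5p: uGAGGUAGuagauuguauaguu
The paired members of the miR-196, miR-30 and miR-125 families share their seeds too:
miR-196b-5p: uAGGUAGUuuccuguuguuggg
miR-196a-5p: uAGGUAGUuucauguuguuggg
miR-30a-5p: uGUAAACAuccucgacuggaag
miR-30e-5p: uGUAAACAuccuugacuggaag
miR-125a-5p: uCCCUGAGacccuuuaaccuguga
miR-125b-5p: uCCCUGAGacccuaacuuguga
Positions are counted from the 5′ end. The changes are G12U, A17G, U18C and A19U from let-7a-5p to let-7i-5p, G12A from let-7a-5p to let-7f-5p, A12C from miR-196a-5p to miR-196b-5p, and U13C from miR-30e-5p to miR-30a-5p. All of them lie outside the seed.

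In the miR-200 family the seeds form 2 groups, and the split in response described below does not follow them:
miR-141-3p: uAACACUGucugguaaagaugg
miR-200c-3p: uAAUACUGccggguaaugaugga
miR-200b-3p: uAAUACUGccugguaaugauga
miR-429: uAAUACUGucugguaaaaccgu
Microprocessor acts on the hairpin and not on the mature strand, so the hairpins of let-7i, let-7a-1, mir-30a and mir-30e are given with the bases between the mature arms in capitals:
let-7i: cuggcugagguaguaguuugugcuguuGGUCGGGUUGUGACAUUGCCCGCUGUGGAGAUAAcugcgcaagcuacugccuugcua
let-7a-1: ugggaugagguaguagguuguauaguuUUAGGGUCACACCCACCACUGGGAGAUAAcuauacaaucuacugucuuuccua
mir-30a: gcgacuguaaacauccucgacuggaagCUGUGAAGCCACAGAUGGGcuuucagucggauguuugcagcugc
mir-30e: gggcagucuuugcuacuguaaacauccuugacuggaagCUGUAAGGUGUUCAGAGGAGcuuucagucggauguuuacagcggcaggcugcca
The capitals span 34 bases in let-7i, 29 in let-7a-1, 19 in mir-30a and 20 in mir-30e.

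WT DGCR8 raised most of the microRNAs of these cells, and by very different amounts. Of the 336 hairpins, 187 rose (55.7% of those tested) and 25 fell (7.44%), by limma on log2(value + 1) with a Benjamini-Hochberg adjusted p under 0.05 over all 336. Together these make up 63.1%. The WT and mock libraries did not overlap for 224 (66.7%). The median log2 fold change was 1.13, with quartiles of -0.11 and 1.88. This median was 0.42 when libraries were centred on their median hairpins and -0.27 with every library scaled to 1 total, so the direction of a hairpin near it rests on the authors' scale. With equal totals 55 hairpins rose and 126 fell, and with median centring 141 rose and 82 fell. The changes of let-7i, mir-10a, mir-196b and mir-30a were between 2.32 and 2.39 even with equal totals. Without WT replicate 1 and mock library a together, 177 hairpins rose, 175 of them among the 187, and the median was 1.00.

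**Figure D1:**
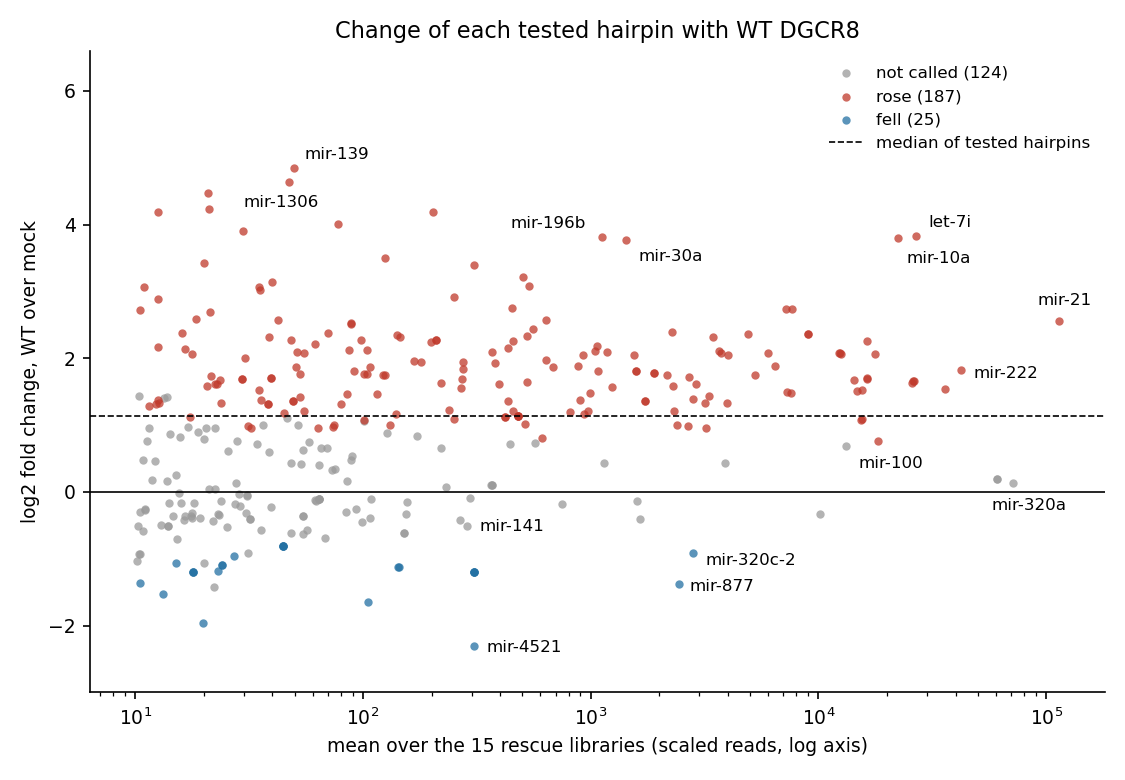
Log2 fold change of WT over mock (vertical) against the mean over the 15 rescue libraries in scaled reads (horizontal, log axis), 1 point per tested hairpin, coloured by call. The 187 risen hairpins lie at every level, let-7i and mir-10a stand alone among abundant hairpins at about 3.8, and mir-320a lies at 0.14; with equal totals the median of -0.27 replaces the dashed line at 1.13.

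The order of the most abundant microRNAs changed with WT DGCR8. In mock the leading names were mir-320a, mir-320b, mir-21, mir-222 and mir-182, and in WT they were mir-21, let-7i, mir-10a, mir-320a and mir-222. The share of let-7i in all scaled reads was 0.993%, 0.926% and 0.848% in mock a, b and c and 5.33%, 4.55% and 4.61% in WT 1, 2 and 3. The share of mir-10a was 0.917%, 0.854% and 0.912% in mock and 4.70%, 4.08% and 4.98% in WT. The WT and mock libraries were far apart for both. A library's share does not depend on the authors' factor, and for mir-21 it was 5.82% to 9.48% in mock and 13.7% to 18.2% in WT. The share of mir-320a went the other way, from 10.8% to 12.4% in mock to 3.48% to 5.70% in WT. Each of these 4 shares gave an exact permutation p = 0.1 (2-sided, n = 3 per group), the smallest possible.

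In the let-7 family, which restrains growth and pluripotency genes in differentiated cells, all 12 tested hairpins rose, but let-7i rose far more than the rest. The hairpin let-7i lies on chromosome 12 (62603686 to 62603769, plus strand, GRCh38.p14), in an intron of the long noncoding RNA AC048341.1 in GENCODE 29. It had 5830, 4353 and 4038 scaled reads in mock a, b and c and 104515, 51792 and 54982 in WT 1, 2 and 3. Every WT library stood above every mock library by a wide margin. The log2 fold change was 3.83 ± 0.28 (SE, adjusted p = 1.84e-08), and it stayed between 3.51 and 4.02 with any 1 library left out. The hairpin let-7a-1 had 11175, 7826 and 7312 scaled reads in mock and 38855, 22574 and 23101 in WT (1.66 ± 0.22, adjusted p = 8.07e-06). The mock values of let-7a-1 were above those of let-7i and its WT values below, so the order of the 2 hairpins was exchanged. The smallest rise was that of let-7f-1, with 7489, 6365 and 6174 scaled reads in mock and 20663, 11719 and 11444 in WT (1.08 ± 0.24, adjusted p = 0.0012; -0.37 with equal totals). The let-7a copies carry 1 mature sequence and largely the same reads, so they are not independent.

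The ratio of 2 hairpins within a library depends on the scaling only through the added 1, which matters for low hairpins alone. Such ratios were tested between WT and mock with limma for 261 pairs of differently named hairpins within families, the miR-320 copies included. Of these, 59 differed (22.6%), and 25 of the 59 were in let-7. With 12 tested hairpins let-7 gives many of the 261 pairs, and pairs with copies of let-7a or let-7f repeat the same reads. The 25 therefore do not rank let-7 against other families. The family pairs were chosen for testing after the data had been seen. Against let-7i, let-7a-1 gave a difference in log2 fold change of -2.17 ± 0.17 (adjusted p = 9.37e-07) and let-7f-1 of -2.76 ± 0.16 (adjusted p = 6.7e-08). The smallest difference from let-7i was that of mir-98, a let-7 member under another name, with 1.79 ± 0.16 (adjusted p = 2.2e-06). All 11 other let-7 hairpins, copies of let-7a and let-7f included, differed from let-7i in this test. With 1 copy per name, let-7i made up 16.6%, 16.9% and 16.7% of the let-7 sum in mock a, b and c, and 51.9%, 48.3% and 49.9% in WT 1, 2 and 3. Over the same libraries let-7a went from 31.1% ± 0.88 (SD, n = 3) to 20.6% ± 0.99 and let-7f from 23.99% ± 2.3 to 10.7% ± 0.37. The exact permutation p was 0.1 for each of the 3 shares, the smallest possible.

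The microRNAs of the HOX gene clusters, which are transcribed with the genes of body patterning, rose as well, again with 1 member ahead of its partner. The hairpin mir-10a overlaps a HOXB4 exon on chromosome 17 (48579838 to 48579947, minus strand). It had 5385, 4015 and 4346 scaled reads in mock a, b and c and 92125, 46442 and 59417 in WT 1, 2 and 3 (3.80 ± 0.24, adjusted p = 2.44e-09). The groups did not overlap and the lowest WT library was far above the highest mock library. Its partner mir-10b, in a HOXD3 intron on chromosome 2, had 1322, 1452 and 1777 in mock and 9348, 6160 and 7449 in WT (2.32 ± 0.24, adjusted p = 8.57e-07). The change of mir-10a exceeded that of mir-10b by 1.48 ± 0.18 (adjusted p = 6.56e-05), and its share of the pair was 71.0% to 80.3% in mock and 88.3% to 90.8% in WT.

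The miR-196 hairpins repress HOX messages. The hairpin mir-196b, which overlaps a HOXA9 exon on chromosome 7 (27169480 to 27169563, minus strand), had 336, 222.1 and 200.5 scaled reads in mock and 6995, 2314 and 2636 in WT (3.82 ± 0.40, adjusted p = 8.57e-07). Its relative mir-196a-1, in a HOXB7 intron, had 499, 293 and 308 in mock and 1298, 577 and 619 in WT. It rose by 1.12 ± 0.35 (adjusted p = 0.0107), which became -0.32 when totals were made equal, and adjusted p was 0.0555 without WT replicate 1. In mock mir-196a-1 was the higher of the 2 in every library, and in WT mir-196b was. The difference of their changes was -2.70 ± 0.15 (mir-196a-1 minus mir-196b, adjusted p = 6.7e-08), between -2.79 and -2.57 with any 1 library left out. The share of mir-196b in the sum of both was 39.6% to 43.1% in mock and 79.9% to 84.3% in WT. The 2 mature sequences differ at the 1 position given above.

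**Figure D2:**
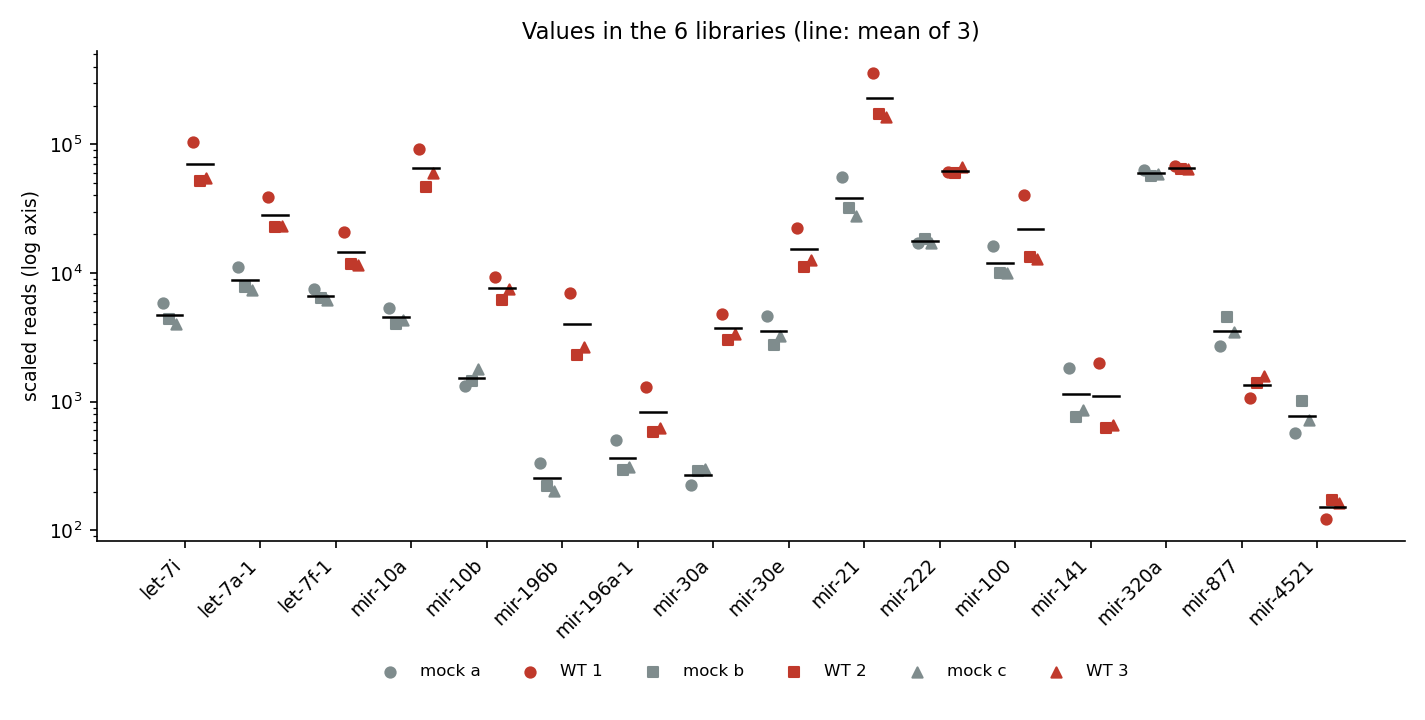
Scaled reads (log axis) of 16 hairpins in each of the 3 mock (grey) and 3 WT (red) libraries, with lines at the group means. For let-7i, mir-10a, mir-196b and mir-30a every WT library lies far above every mock library, for mir-100 and mir-141 the groups overlap, and for mir-877 and mir-4521 the WT libraries lie below.

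All 6 hairpins of the miR-30 family, which is known for restraining autophagy and mesenchymal genes, rose, and mir-30a and the mir-30c copies led. The hairpin mir-30a lies on chromosome 6 (71403551 to 71403621, minus strand), in an intron of the long noncoding RNA AL136164.2. It had 224, 286 and 298 scaled reads in mock a, b and c and 4784, 3036 and 3368 in WT 1, 2 and 3 (3.77 ± 0.34, adjusted p = 2.67e-07). The value of mir-30e, the most abundant member, was 4631, 2769 and 3239 in mock and 22328, 11030 and 12641 in WT (2.08 ± 0.30, adjusted p = 2.03e-05). The rise of mir-30a was larger than that of mir-30e by 1.69 ± 0.25 (adjusted p = 0.000255), between 1.35 and 1.90 with any 1 library left out. Its share of the miR-30 sum was 2.98% to 5.94% in mock and 10.3% to 13.6% in WT. The neighbour of mir-30a on chromosome 6, mir-30c-2, had 160, 48.3 and 92.7 in mock and 2759, 420 and 514 in WT (3.22 ± 0.62, adjusted p = 0.000301), and its change was 2.36 without WT replicate 1. The lowest change of the family was that of mir-30b (1.95 ± 0.51, adjusted p = 0.00314; 0.51 with equal totals).

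**Figure D3:**
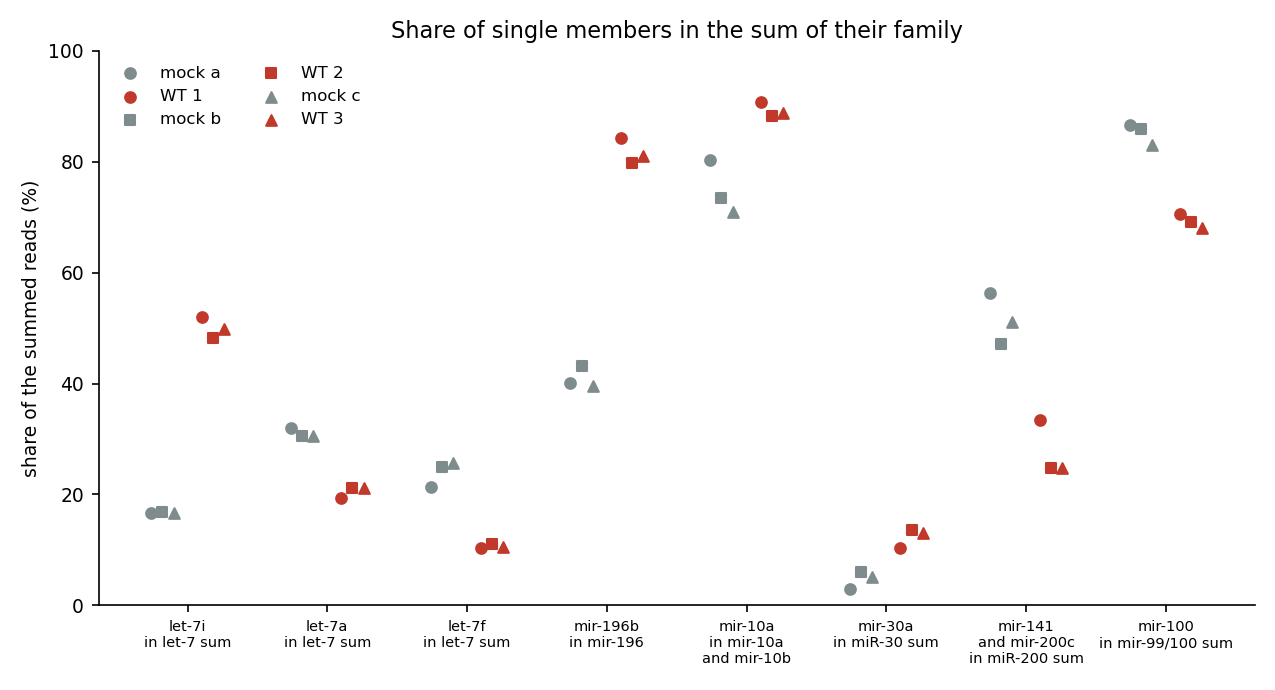
Share of a named microRNA in the summed reads of its family (percent), in each mock (grey) and WT (red) library. The let-7i share is 16.6% to 16.9% in mock and 48.3% to 51.9% in WT, and the WT and mock libraries do not overlap in any of the 8 shares.

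The miR-200 family keeps epithelial cells epithelial by repressing ZEB factors, and its 5 hairpins come from 2 primary transcripts. The hairpins on chromosome 1 rose, namely mir-200b (1.17 ± 0.33, adjusted p = 0.00598), mir-200a (1.36 ± 0.34) and mir-429 (1.64 ± 0.38), but with equal totals these values were -0.27, -0.08 and 0.20. The hairpins on chromosome 12, in introns of MIR200CHG, did not pass the test. The first of them, mir-141, had 1837, 760 and 860 scaled reads in mock a, b and c and 1999, 627 and 664 in WT 1, 2 and 3 (-0.18 ± 0.42, adjusted p = 0.729). The groups overlapped, and the highest library of each was mock a and WT 1. The second, mir-200c, had 221, 61.2 and 145 in mock and 307, 72.4 and 64.2 in WT (-0.15 ± 0.58, adjusted p = 0.823; 0.03 with edgeR). In the test of the ratios mir-141 changed less than mir-429 by 1.81 (-1.81 ± 0.16, adjusted p = 2.64e-06) and less than mir-200b (mir-200b minus mir-141, 1.35 ± 0.20, adjusted p = 0.000306). The seed of miR-200c is that of miR-200b and miR-429, and mir-200b minus mir-200c was 1.32 ± 0.41 (adjusted p = 0.0375), which was not past the threshold without mock library a or c or WT replicate 2 or 3 (adjusted p 0.0991 to 0.15) or blocked by number (0.0578). The share of mir-141 and mir-200c in the family sum was 47.1% to 56.3% in mock and 24.7% to 33.5% in WT (exact permutation p = 0.1, the smallest possible).

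The miR-99/100 and miR-125 families lie together with let-7 hairpins in 3 related primary transcripts. The hairpin mir-100, on chromosome 11 in an intron of MIR100HG, had 16110, 10032 and 10029 scaled reads in mock a, b and c and 40384, 13193 and 12865 in WT 1, 2 and 3. WT 1 stood apart from the other WT libraries, which overlapped the mock range. The change of mir-100 was 0.69 ± 0.37 (adjusted p = 0.112), 0.15 without WT replicate 1 and past the threshold without WT replicate 2 or 3 (adjusted p = 0.0475 and 0.0425). With the WT and mock libraries blocked by number it was also past the threshold (adjusted p = 0.000681). Its relative mir-99b, on chromosome 19 within SPACA6, rose from 2483, 1648 and 2045 to 16811, 5858 and 6037 (2.05 ± 0.36, adjusted p = 0.000135). The difference between mir-99b and mir-100 was 1.36 ± 0.14 (adjusted p = 1.35e-05), between 1.27 and 1.48 with any 1 library left out. In the transcript of mir-99b lies mir-125a, which had 53, 28.97 and 52.6 in mock and 1870, 191 and 277 in WT (3.39 ± 0.69, adjusted p = 0.000479; 2.38 without WT replicate 1 and 4.03 without WT replicate 2). In the transcript of mir-100 lies mir-125b-1, with 413, 280 and 318 in mock and 1500, 420 and 491 in WT. Its rise of 1.02 ± 0.40 (adjusted p = 0.0342) was lost without WT replicate 1 (0.45, adjusted p = 0.217) and without mock library b or c (adjusted p = 0.107 and 0.0821), and turned to -0.42 with equal totals. The change of mir-125a was larger than that of mir-125b-1 by 2.37 ± 0.43 (adjusted p = 0.00157). The copy mir-125b-2 had 38, 0 and 2.51 in mock and 941, 24.1 and 34.2 in WT (4.19 ± 1.34, adjusted p = 0.0111), and its groups overlap. This value ran from 2.53 to 5.65 with 1 library left out, and the call was lost without WT replicate 1 (adjusted p = 0.0825), without mock library b (0.0772) and with equal totals (3.09, adjusted p = 0.0608).

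Over 25 families and genomic groups listed by name, 88 of 102 tested hairpins rose and 0 fell (14 were not called), with a median of 1.77 and a median level of 951 scaled reads. Among the other 234 tested hairpins 99 rose and 25 fell, with a median of 0.69 and a median level of 48.3. In 15 of the 23 families with 2 or more tested hairpins every tested member rose. Among cell-cycle microRNAs, 11 of 12 tested hairpins of miR-17-92 and its paralogues rose (median 1.78). Here mir-92a-1 had 8482, 3976 and 4537 scaled reads in mock and 30333, 12559 and 13513 in WT (1.69 ± 0.35, adjusted p = 0.00065; 0.24 with equal totals). All 6 hairpins of the miR-23/27/24 clusters rose, with the mir-24 copies, which carry 1 name, counted singly. The largest changes were those of mir-27a and mir-27b, at 2.73 for both, and whether these 2 share reads was not tested. The value of mir-27a was 3803, 2852 and 2925 in mock and 30470, 16509 and 18461 in WT (2.73 ± 0.28, adjusted p = 7.96e-07). All 6 miR-181 hairpins rose (median 1.81), as did all 3 of mir-26 (2.36) and all 3 of mir-103 and mir-107 (2.07), which share reads. In miR-15/16 all 5 tested hairpins rose (1.48). Among them mir-424 (2.37 ± 0.37) exceeded mir-16-1 by 0.88 (mir-16-1 minus mir-424, -0.88 ± 0.18, adjusted p = 0.00431), and the rise of mir-15a (0.99 ± 0.41, adjusted p = 0.043) was lost without WT replicate 1 or mock library b or c (adjusted p 0.0894 to 0.203). In miR-29, which represses collagen genes, 3 of 4 rose (1.78), the exception being mir-29c (1.11, adjusted p = 0.111; 0.0155 blocked by number). Of mir-130, mir-301 and mir-454, 4 of 5 rose (1.69), the exception being mir-301b (1.05, adjusted p = 0.0554; 0.00184 blocked by number), and mir-301a exceeded mir-301b by 0.81 ± 0.21 (adjusted p = 0.0154; 0.0643 without WT replicate 2).

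The hairpins mir-183 and mir-182, which lie with mir-96 in a cluster active in sensory and epithelial cells, rose, and the WT and mock libraries did not overlap for any of the 3. The value of mir-183 was 2080, 2357 and 2474 scaled reads in mock and 8244, 5005 and 4680 in WT (1.33 ± 0.25, adjusted p = 0.000228; -0.12 with equal totals). That of mir-96 was 0.89 ± 0.51 (adjusted p = 0.137; 0.00769 blocked by number). The abundant mir-182 had 14729, 16731 and 18604 scaled reads in mock and 34037, 24130 and 26992 in WT. It rose by 0.76 ± 0.19 (adjusted p = 0.00275), turned to -0.69 with equal totals and was not called with median centring (0.05). Few hairpins rose in the CLCN5 intron and none in the mir-371 to mir-373 cluster of pluripotent cells. In the CLCN5 intron 1 of 5 tested hairpins rose (median 0.35; -0.36 with median centring and -1.08 with equal totals). That hairpin was mir-660, with 105, 74.0 and 80.2 in mock and 362, 140 and 160 in WT (1.22 ± 0.36, adjusted p = 0.00675; 0.80 without WT replicate 1 and -0.21 with equal totals). From the same intron, mir-501 had 138, 157.8 and 125.3 in mock and 206, 94.8 and 81.3 in WT (-0.26 ± 0.41, adjusted p = 0.599). The hairpin mir-373 had 4297, 4095 and 1634 scaled reads in mock and 5176, 2590 and 1607 in WT (-0.14 ± 0.42, adjusted p = 0.774). Its value therefore varied more within each group than between the group means.

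Hairpins that lie in 1 primary transcript were compared with each other. Some have a copy with the same mature sequence in another transcript, so their reads cannot be assigned to either transcript. Examples are let-7f-1 and let-7f-2 (1.08 and 1.09) and the copies of mir-19b and mir-92a. The ranges and pairs below include such copies. Over 30 transcripts with 2 or more tested hairpins (76 hairpins in all), the median range of the log2 fold change within a transcript was 0.48. The range was under 0.5 in 15 transcripts and 1 or more in 4. In the mir-17 to mir-92a-1 transcript, MIR17HG, all 6 hairpins rose, from 1.69 for mir-92a-1 to 2.09 for mir-17. Both hairpins of MIR200CHG were close to each other, mir-141 at -0.18 and mir-200c at -0.15. On the X chromosome mir-221 (2.26 ± 0.30) and mir-222 (1.82 ± 0.17) rose together. These 2 microRNAs repress the cell cycle inhibitor p27. The widest range was that of the SPACA6 transcript, from let-7e (1.75 ± 0.25) to mir-125a (3.39 ± 0.69). Of 71 pairs within transcripts, 2 differed (2.82%) by limma on the ratios, let-7f-2 against mir-98 (-0.95 ± 0.22, adjusted p = 0.0257) and mir-501 against mir-660 (-1.48 ± 0.34, adjusted p = 0.0257). The count was 0 without mock library b, mock library c or any 1 WT replicate, and 5 without mock library a. With the 6 WT and mock libraries blocked by number, 11 pairs differed.

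Among microRNAs linked to tumours (mir-21, mir-31, mir-210, mir-135b and the mir-7 copies), all 7 tested rose (median 2.27), and mir-155 had no read. Over all tested hairpins 187 of 336 rose (median 1.13). The mir-7 copies carry 1 name and are counted singly in the 7. The oncogenic mir-21, in VMP1 on chromosome 17, had 55688, 32230 and 27725 scaled reads in mock a, b and c and 357939, 170815 and 164155 in WT 1, 2 and 3 (2.55 ± 0.28, adjusted p = 1.57e-06). It was the most abundant microRNA of WT-rescued cells, and its groups did not overlap. The hypoxia-induced mir-210 had 75, 58.0 and 75.2 in mock and 858, 427 and 397 in WT (2.91 ± 0.33, adjusted p = 2.22e-06). The p53 target mir-34a had 164, 58.0 and 72.7 in mock and 1310, 422 and 400 in WT (2.76 ± 0.46, adjusted p = 8.42e-05). The abundant mir-222 was even across replicates, with 17226, 18434 and 17235 in mock and 60950, 60338 and 66115 in WT (1.82 ± 0.17, adjusted p = 4.15e-07; 0.38 with equal totals, adjusted p = 0.176). The rise of mir-31 (1.53 ± 0.23, adjusted p = 2.78e-05) was 0.09 with equal totals. Further large rises were those of mir-193b (3.51 ± 0.47), mir-28 (2.58 ± 0.43), the mir-486 copies (2.53 ± 0.43), the cartilage microRNA mir-140 (2.43 ± 0.34) and mir-22 (2.06 ± 0.24).

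The largest fitted changes were those of scarce hairpins. In mock, mir-139 and mir-1306 lay below the limit set on the mean over the 15 rescue libraries. They entered the test through higher values in other libraries, and the part of this selection in their rank was not tested. The value of mir-139 was 6, 3.22 and 5.01 scaled reads in mock (9 reads) and 216, 124 and 156 in WT (343 reads), a rise of 4.85 ± 0.45 (adjusted p = 4.15e-07). It is named after its values were seen, since its level is below the median. The hairpin mir-1306 lies within the DGCR8 gene itself, in an exon that Microprocessor cuts as part of the control of its own level. It had 1 read in the 3 mock libraries and 80 in the 3 WT libraries, a ratio of scaled levels of 67.3 (95% exact interval 11.8 to 2693, which covers counting error only). The WT values were 42.7, 41.4 and 34.3 scaled reads. The WT cells also received DGCR8 itself, so reads from the rescue and from the resident gene cannot be told apart here. The other hairpin of DGCR8, mir-3618, had 2 reads in mock and 3 in WT, and mir-451a, which is cut by AGO2 in place of DICER, had 5 and 4. Neither entered the test.

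Hairpins that bypass Microprocessor behaved differently from each other. The capped hairpin mir-320a had 63682, 56997 and 58878 scaled reads in mock a, b and c and 68304, 64776 and 64028 in WT 1, 2 and 3. Its change was 0.14 ± 0.09 (adjusted p = 0.213), -0.58 with median centring and -1.31 with equal totals. On the authors' scale the sum of these abundant hairpins is nearly level, and why was not tested. Of the 8 miR-320 hairpins, 1 fell and 7 were not called. The one that fell was mir-320c-2, from 3741, 6345 and 5129 to 2144, 2764 and 3088 (-0.91 ± 0.26, adjusted p = 0.00547). The more abundant mir-320c-1, of the same name, was not called (-0.33 ± 0.16, adjusted p = 0.0881; 0.0333 blocked by number). The change of mir-320a was above that of mir-320c-2 by 1.05 ± 0.26 (adjusted p = 0.00882), also in the test of the ratios. The mirtron mir-877, in an intron of ABCF1, fell from 2683, 4517 and 3484 to 1071, 1404 and 1578 (-1.38 ± 0.41, adjusted p = 0.00683). The capped hairpin mir-484 had 303, 248 and 396 in mock and 1565, 546 and 606 in WT. Its rise of 1.37 ± 0.54 (adjusted p = 0.036) was lost without WT replicate 1 and without mock a or b (adjusted p 0.0628 to 0.169) and was -0.07 with equal totals. The mirtron mir-1226 gave 0.16 ± 0.31 (adjusted p = 0.662), and the other 5 listed hairpins of this kind were too low to test, with 22 reads in mock and 28 in WT.

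The falls had a common trait that did not enter their choice. Hairpins are numbered in the order of their discovery, and of the 25 that fell 22 have a number of 1200 or more. The counts by number include copies that hold the same reads. With 1 hairpin per name 14 fell in all, and their split by number was not counted. Of 228 tested hairpins numbered under 1200, 173 rose and 3 fell (median 1.61, median level 244 scaled reads). Of 108 with a number of 1200 or more, 14 rose and 22 fell (median -0.35, median level 29.5). The falls among better expressed hairpins were those of mir-320c-2 and mir-877, given above, and of 4 others. The hairpin mir-4521, on chromosome 17 (8186945 to 8187004, plus strand) outside annotated genes, had 568, 1017 and 722 in mock and 123, 171 and 163 in WT (-2.30 ± 0.48, adjusted p = 0.00065). The hairpin mir-1275 had 146, 242 and 185 in mock and 24.01, 89.6 and 94.2 in WT (-1.65 ± 0.49, adjusted p = 0.00696; -1.02 without WT replicate 1). The mir-6724 copies, which hold the same reads, fell by 1.19 (-1.19 ± 0.35, adjusted p = 0.00683). The mir-1254 copies fell by 1.12 (-1.12 ± 0.35, adjusted p = 0.0106; 0.0512 without mock library b). WT replicate 1 was the highest WT library for 6 of the 25 falls and mock library a the highest mock library for 0, against 272 and 209 of all 336 tested.

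The apical loop was described for the 191 tested hairpins that have both mature arms in the RefSeq table. The letters UGU, which DGCR8 is known to favour in the loop, were searched between the arms on the hairpin strand only. They were present in 33.7% of 739 hairpins of the whole table, in 40.8% of the 191 tested, in 46.0% of the 124 that rose, in 38.5% of the 13 that fell and in 29.6% of the 54 not called. Of 78 tested hairpins with UGU, 57 rose (median 1.69), and of 113 without, 67 rose (median 1.31). Among hairpins numbered under 1200, the medians were 1.80 for 63 with UGU and 1.48 for 83 without, and among those numbered 1200 or more the order was the other way, -0.51 for 15 with UGU and -0.17 for 30 without. Between its arms, let-7i holds UGU and let-7a-1 does not, but let-7f-1, which rose least in its family, holds it too. Both mir-30a and mir-30e hold it. Hairpins with 0 to 12 bases between the arms had a median of 0.28 (12 hairpins), those with 13 to 15 of 1.34 (56), those with 16 to 18 of 1.402 (73) and those with 19 to 60 of 1.66 (50). Of the 12 in the shortest class, 6 are numbered 1200 or more (median -1.20, 5 fell). Among hairpins numbered under 1200 the medians were 1.18 (6 hairpins), 1.61 (47), 1.697 (53) and 1.76 (40). The classes differ in level too (median 58.1 scaled reads in the shortest class and 454.01 in the longest), and the part of level in this order was not tested.

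The libraries carried microRNAs of epithelium, and also some listed for other cell types. Of 10 listed microRNAs of colon and other epithelium, all were tested and 8 rose (median 1.35). This is near the background, since 55.7% of all tested hairpins rose (median 1.13). Among those numbered under 1200, as these 10 are, 173 of 228 rose (median 1.61). The summed levels of the 10 were 1832 to 3820 scaled reads in mock and 3098 to 7432 in WT. The colon microRNA mir-192 had 71, 61.2 and 62.7 in mock and 323, 181 and 188 in WT (1.76 ± 0.30, adjusted p = 9.4e-05; 0.33 with equal totals). The rise of mir-375 (0.96 ± 0.40, adjusted p = 0.0444) was lost with both count tests (adjusted p = 0.068 and 0.0745) and turned to -0.45 with equal totals. None of the 5 listed blood microRNAs reached the test, with sums of 20.1 to 35 in mock and 31.0 to 60.04 in WT, and mir-122 of liver had 0 reads in mock and 1 in WT. Those of striated muscle were at 0 in all 6 libraries. The endothelial mir-126 rose from 751, 718 and 727 to 2148, 1430 and 1540 (1.197 ± 0.26, adjusted p = 0.000972; -0.25 with equal totals). The smooth muscle mir-143 (0.65 ± 0.47) and mir-145 (1.43 ± 0.91) and the neural mir-9 copies (0.10 ± 0.47) did not pass the test.

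The rise with WT DGCR8 can be set beside the lower levels in dCTT cells, from 1 parental and 1 dCTT library in a separate table with its own scale and no replicates. The log2 rise of WT over mock was divided by the log2 ratio of parental over dCTT for each hairpin. Where dCTT cells were lower by 4-fold or more, which was so for 223 hairpins, the median was 29.02% (quartiles 18.8% and 37.5%), and it was over 50% for 20. The value for let-7i was 70.3%, from 31240 scaled reads in parental and 712 in dCTT cells. For let-7a-1 it was 29.8% and for let-7f-1 18.9%, so within let-7 the parental over dCTT ratios were alike (log2 5.45, 5.58 and 5.71) while the rises were not. The same held for mir-196b (67.7%) and mir-196a-1 (20.1%), with log2 ratios of 5.64 and 5.57. The value was 64.2% for mir-10a and 50.6% for mir-10b, whose log2 ratios of parental over dCTT were 5.92 and 4.596. It was 109% for mir-30a and 35.3% for mir-30e, and here the ratios differed as well, 3.47 for mir-30a and 5.88 for mir-30e, so the 109% has a smaller denominator. At the low end, mir-100 had 10.7%, mir-99a 14.5% and mir-375 13.03%. For mir-141 and mir-200c the parental over dCTT log2 ratios were 5.83 and 6.52, and their changes with WT did not pass the test. These percentages need not be degrees of recovery, since mock levels differed from those of the dCTT library. The mock mean and the dCTT value were 59852 and 30425 scaled reads for mir-320a, 4740 and 712 for let-7i, and 44.9 and 391 for mir-125a. No test was possible across the 2 tables, since each parental and dCTT value is 1 library.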

How the data were processed

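Small RNA was sequenced from HCT116 cells. Per the labels' protocols, RNA was taken with TRIzol, a gel fraction of small RNA was cut and TruSeq small RNA libraries were made. Cutadapt 1.14, Bowtie2 and hg38 (GRCh38) are named in the submitters' processing notes. For read assignment and scaling the method is not given in the sources used here. Deposited by the authors were whole-number read counts for 1 mock library and, for the other rescue libraries, a scaled signal, which is counts times a factor. All values (100%) were whole multiples of a library's step (tolerance 0.001 of a read), so read counts were recovered.

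Limma 3.58.1 (R 4.3.3; eBayes with trend, 2-sided) was fitted on log2(value + 1) of all 15 rescue libraries with group as its only term, which understates the change of low hairpins. Every p adjusted by Benjamini-Hochberg covers all 336 hairpins, or all pairs in a pair test (fitted without trend). Other settings were other scalings, a pseudocount of 10, no filter, a minimum mean of 50, only 6 libraries, no trend, edgeR 4.0.16, DESeq2 1.42.0, 1 hairpin per name and each library left out. On simulated counts with 200 of 336 hairpins changed 4-fold for WT over mock, 95% were recovered and 3.68% of the others were called. These counts were independent between hairpins, with 1 dispersion and as many rises as falls. Deviations shared by the hairpins of a library were therefore not covered. The real replicates differed by more than sampling noise (5.90 to 173 chi-square units per degree of freedom). Deviations from the group means correlated over hairpins at 0.63, 0.30 and 0.15 between WT and mock columns with the numbers 1, 2 and 3, so the number was also used as a block (blocked by number), although 2 and 3 crossed gave 0.23 and 0.37. This pairing rests on column names, as the labels do not tie mock columns to samples. The members, lists and named hairpins were chosen with earlier results of these data known. Named are the largest rises and falls among non-overlapping hairpins at or above the median level, the most abundant, the smallest changes among abundant ones, and list members. Sequences and positions came from RefSeq (273 of 336 hairpins matched) and host genes from GENCODE 29. Motifs outside the hairpin were not analysed here.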

Additional observations from a re-analysis of the deposited data

How the results depend on the processing

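The counts of rises and falls were 187 and 25 on the authors' scale, 55 and 126 with equal totals and 141 and 82 with median centring. With only the 6 WT and mock libraries in the fit they were 161 and 15. The 25 falls became 12 with a minimum mean of 50, 15 with only the 6 libraries in the fit, 14 with 1 hairpin per name, and 15 to 29 with 1 library left out (15 without mock library c). The median of tested hairpins, 1.13, became 0.42 with median centring, -0.27 when totals were equal, 0.21 with no filter and 0.78 to 1.37 with 1 library left out. Of the 23 families with 2 or more tested hairpins, 15 had every one risen, against 9 and 4 under median centring and equal totals. The 2 differing pairs within transcripts became 1 with only 6 libraries, 0 to 5 with 1 library left out, and 0 without WT replicate 1 and mock library a together, a setting chosen after seeing the data. With the column number as a replicate block in a fit of the 6 libraries, also chosen after seeing the data, 197 hairpins rose and 29 fell, and 11 pairs within transcripts and 78 within families differed. Of the named hairpins this block added mir-100, mir-96, mir-29c, mir-301b and mir-320c-1 (-0.33, adjusted p = 0.0333), and it lost mir-200b minus mir-200c and mir-30b minus mir-30c-2 (-1.27, adjusted p = 0.0578) among the named pairs. It changed the call of no other named hairpin or pair.

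Equal totals turned the list medians of miR-200 (-0.27), mir-183 with mir-96 and mir-182 (-0.55), mir-99/100 (-0.43), mir-196 (-0.32), the CLCN5-intron cluster (-1.08) and the Microprocessor-independent list (-1.29). They also turned let-7f-1 (-0.37), mir-196a-1 (-0.32), mir-125b-1 (-0.42), mir-99a (-0.43), mir-100 (-0.75), mir-182 (-0.69), mir-183 (-0.12), mir-96 (-0.55), mir-200a (-0.085), mir-200b (-0.27), mir-375 (-0.45), mir-320a (-1.31), mir-320b-1 (-1.25), mir-484 (-0.072), mir-1226 (-1.27), mir-18b (-0.39), mir-15a (-0.44), mir-29c (-0.27), mir-148b (-0.23), mir-660 (-0.21), mir-301b (-0.38), mir-126 (-0.25), mir-143 (-0.76) and mir-9-1 (-1.33). Median centring turned the CLCN5-intron cluster (-0.36), the Microprocessor-independent list (-0.56), mir-100 (-0.018), mir-320a (-0.58), mir-320b-1 (-0.52), mir-1226 (-0.55), mir-143 (-0.058) and mir-9-1 (-0.61). A minimum mean of 50 turned the miR-320 list (0.14), and mir-200c was 0.030 with edgeR and 0.038 with DESeq2. Without WT replicate 1 and mock library a together, the Microprocessor-independent list (-0.027), mir-1226 (-0.21), mir-9-1 (-0.17) and mir-26a-1 minus mir-26b (0.17) turned. With 1 library left out, values on both sides of 0 were found for mir-141 (-0.72 to 0.22), mir-200c (-0.87 to 0.25), mir-373 (-0.59 to 0.26), the mir-371 to mir-373 list (-0.78 to 0.050), mir-1226 (-0.10 to 0.40), mir-9-1 (-0.50 to 0.50) and mir-26a-1 minus mir-26b (-0.22 to 0.33). The cause of these shifts was not tested. Of the 71 named hairpins that were called, 71 stayed called in the same direction with a pseudocount of 10, 70 with DESeq2, 69 with edgeR, 60 with median centring and 34 with equal totals. Hairpins with few reads in mock, such as mir-139 with 9, are limited by depth.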
